A study of Homo sapiens with 18 samples.

Results

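The SMAD genes were examined in PGP1, an established human induced pluripotent stem cell (PSC) line, and in PCGF6-KO cells derived from it. The 8 members were taken from the gene count table by their symbols, and they were 8 of 57133 genes. The RNA-seq libraries came from wild-type (WT) cells and from the clones KO1 and KO2, with 2 for each. The study made both clones by CRISPR-Cas9 deletions in the first exon of PCGF6, which differed between the clones and were present on both alleles. All cells were PSCs grown without feeder cells, and each KO genotype was 1 clone, so that a difference between KO1 and KO2 cannot be told apart from one between single-cell-derived lines. The labels do not say that the replicates were separate cultures, and p-values therefore measure only the spread between these libraries, which may be technical.

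SMAD proteins carry signals of the TGF-beta family from receptors at the membrane to the nucleus. SMAD2 and SMAD3 are receptor-regulated SMADs of the activin, NODAL and TGF-beta branch, whereas SMAD1, SMAD5 and SMAD9 (also called SMAD8) serve the BMP branch. SMAD4 is the common partner of both, and the inhibitory SMAD6 and SMAD7 act as feedback antagonists. In human PSCs, activin and NODAL signaling through SMAD2 and SMAD3 is known to maintain pluripotency and to drive mesendoderm formation, and BMP signaling promotes mesoderm and extraembryonic fates. PCGF6 is a subunit of the repressive Polycomb complex PRC1.6, which also holds the DNA-binding proteins MGA, MAX and E2F6.

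PCGF6, the targeted gene, had 268 and 300 counts in the WT libraries, 99 and 103 in KO1, and 187 and 159 in KO2. It was lower in all PCGF6-KO libraries, with a log2 fold change of −1.15 (adjusted p = 0.00914). Counts were made over the whole gene, so transcripts that lack only the deleted part of the first exon would still be counted. The libraries held 15877396 to 18918609 counts in all, of which 4425 to 6641 fell on the SMAD genes. Summed CPM of 12 markers of pluripotent cells was 10347 to 10808 in WT, 8080 to 8129 in KO1 and 7487 to 7690 in KO2, and none of these markers was at 0 in any group. Of the 12, 3 were called lower in PCGF6-KO, namely ZFP42, DNMT3B and SOX2, where 8.7% of all tested genes were. By an adjusted p under 0.05 alone, 6 were lower and 1 higher, where 16.6% and 20.5% of all tested genes were. ZFP42 was nearly lost, from 304 and 329 counts in WT to 1 or 2 in each PCGF6-KO library (log2 fold change −7.51). SOX2 fell by 0.69 on the log2 scale, and by 1.04 in KO2, where it was called, against 0.41 in KO1, where it was not. DNMT3B carried most of the difference, at 3020 CPM in WT, 1581 in KO1 and 1154 in KO2. Among markers not called, the log2 fold change was 0.01 for POU5F1 and 0.40 for NANOG. It was −0.44 for DPPA4, −0.40 for L1TD1 and −0.29 for LIN28A. TERT was called lower in KO2 (−0.73). CPM, the counts scaled to a common library total, are scaled by the TMM method throughout.

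SMAD9, SMAD6, SMAD3 and SMAD7 were called higher in PCGF6-KO cells, and no member was called lower. With 1 library left out, 2 to 4 members were called, and the 2 without WT replicate 1 were SMAD3 and SMAD6. Calls required an absolute log2 fold change over 0.6 together with a p under 0.05 from edgeR's quasi-likelihood test after Benjamini-Hochberg adjustment. By this rule 14.9% of the 17672 tested genes were called higher and 8.7% lower. All 8 members were among the genes tested. At an unadjusted p under 0.05 alone, 5 members were higher and 2 lower, where 8190 of the 17672 genes passed in either direction. DESeq2 called 4 members higher and 0 lower, and its share over all genes is not given here. In 5 members all 4 PCGF6-KO libraries lay above both WT libraries in CPM, and in 2 members below them, as did 29.5% and 27.6% of all tested genes. The median log2 fold change was 0.45 over the 8 members and 0.00 over all genes tested.

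The 250 bases before the transcription start are shown for the 3 genes with the largest increase, SMAD9, SMAD6 and SMAD3. They were taken from RefSeq promoter windows on GRCh38.p14 and are written 5′ to 3′ on the strand of the gene. Capitals mark the E-box CACGTG, the E2F6 motif GCGGGAA, and the palindromic SMAD element GTCTAGAC, each searched on both strands. The E-box is the letters that MAX and MGA are known to bind. SMAD9 lies on the reverse strand (chr13:36920239-36920488) and SMAD6 on the forward strand (chr15:66701986-66702235). The SMAD3 window (chr15:67065352-67065601, forward strand) was chosen, after the search, as the 1 of its 5 windows that held any of these letters.
SMAD9: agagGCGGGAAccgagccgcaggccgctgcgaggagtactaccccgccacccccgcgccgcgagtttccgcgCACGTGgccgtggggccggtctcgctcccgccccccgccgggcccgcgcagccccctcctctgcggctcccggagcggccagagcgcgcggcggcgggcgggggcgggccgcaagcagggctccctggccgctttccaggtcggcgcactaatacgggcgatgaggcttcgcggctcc
SMAD6: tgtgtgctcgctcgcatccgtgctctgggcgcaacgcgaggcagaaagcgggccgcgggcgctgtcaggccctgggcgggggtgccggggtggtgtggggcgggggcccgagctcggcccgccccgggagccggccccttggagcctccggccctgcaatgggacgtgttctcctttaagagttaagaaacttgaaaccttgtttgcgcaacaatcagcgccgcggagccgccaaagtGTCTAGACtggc
SMAD3: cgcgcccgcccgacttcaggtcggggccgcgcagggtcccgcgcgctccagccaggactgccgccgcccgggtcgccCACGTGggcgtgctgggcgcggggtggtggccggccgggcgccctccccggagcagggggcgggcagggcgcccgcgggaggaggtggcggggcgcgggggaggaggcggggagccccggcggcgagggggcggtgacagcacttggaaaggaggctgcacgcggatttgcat

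The SMAD9 window held an E-box that began 178 bases before the start and the E2F6 motif 246 bases before it. The SMAD3 window held an E-box 173 bases before the start. The SMAD6 window held neither, but held the palindromic SMAD element 12 bases before the start. Among 35116 promoter windows of the same length, the E-box was found in 6.34%, the E2F6 motif in 5.52% and the SMAD element in 0.182%. The other members were not free of these letters. SMAD1, which was not called, held an E-box in 1 of its 5 windows and the E2F6 motif in 1, and SMAD2 held the E2F6 motif in 1 of 2. None of the 3 motifs was found in the windows of SMAD4, SMAD5 and SMAD7. The windows of SMAD9, SMAD6 and SMAD3 shown here had 78.4%, 68% and 80.8% G and C, against a median of 58% over all windows. The other SMAD3 windows had 44.8% to 53.6%, and members that were not called were also rich in G and C, with 78.4% to 84.4% in SMAD2, 68.4% in SMAD4 and 70.4% in SMAD5. These matches describe letters only, and binding was not analysed here.

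Levels were compared between genes per length, as TPM, which divides counts by gene length and scales each library to the same total. In WT cells, SMAD5 had the highest level, at 36.8 TPM, followed by SMAD7 at 24.9, SMAD1 at 21.2 and SMAD4 at 19.6. The ranges of SMAD1 (20.1 to 22.2) and SMAD4 (18.7 to 20.4) overlapped between libraries, although SMAD1 lay above SMAD4 within each of them. SMAD3 followed at 12.4 and SMAD2 at 7.46. SMAD6 (1.25 TPM) and SMAD9 (0.827 TPM) were lowest, with ranges of 1.09 to 1.40 and 0.654 to 1.00 that did not overlap. In KO2 the order was SMAD7 (40.2 TPM), SMAD3 (34.8), SMAD5 (27.6), SMAD1 (20.9), SMAD4 (14.1), SMAD2 (8.82), SMAD6 (7.97) and SMAD9 (6.15). SMAD3 thus stood above SMAD5 in KO2, and below it in WT. The order depended on the length used. With the length of the MANE Select transcript in place of the counted one, SMAD1 stood above SMAD7 in WT (42.7 and 37.6 TPM). In KO2 it then stood above SMAD5 (42.2 and 35.6 TPM), and SMAD6 above SMAD2 (17.8 and 9.26 TPM).

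**Figure D1:**
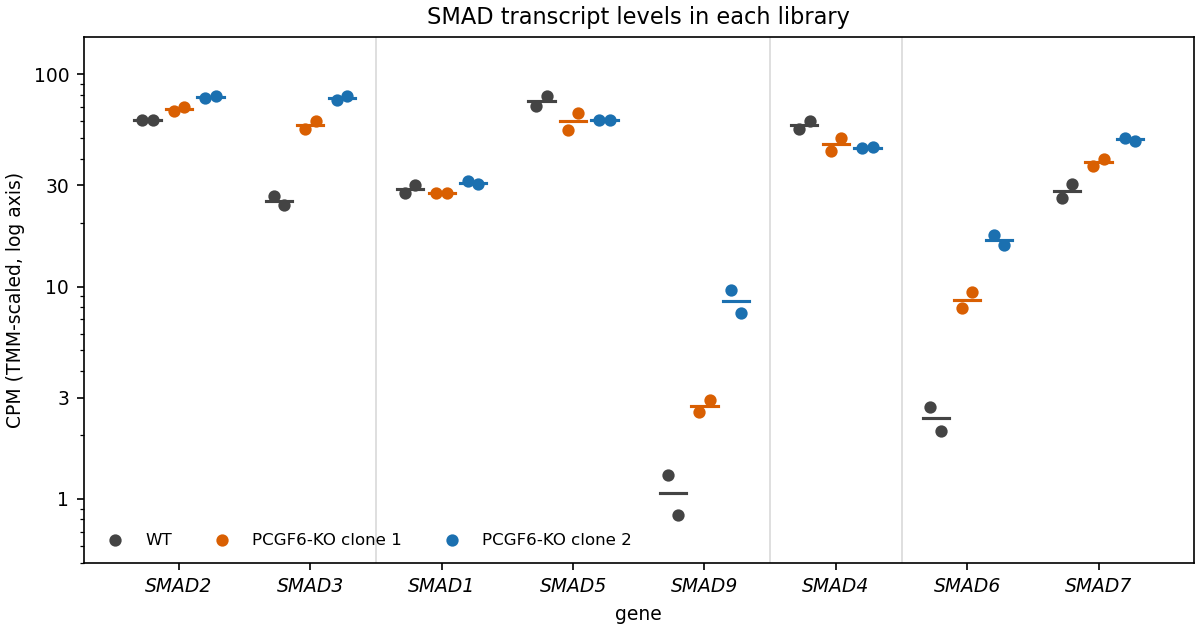
CPM of the 8 SMAD genes on a log axis, by gene and group. Each point is 1 library, with 2 in each group, and the short lines are group means. All 4 PCGF6-KO libraries lie above both WT libraries for SMAD2, SMAD3, SMAD9, SMAD6 and SMAD7 and below them for SMAD5 and SMAD4, while the groups overlap for SMAD1.

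SMAD3, a receptor-regulated SMAD that binds DNA directly, rose in both clones. It had 26.7 and 24.1 CPM in the WT libraries, 55.3 and 60.0 in KO1, and 75.2 and 79.2 in KO2. The groups did not overlap, and KO2 lay above KO1 in both libraries. The log2 fold change was 1.41 in PCGF6-KO against WT (SE 0.16, adjusted p = 0.000158). Against WT it was 1.18 in KO1 (SE 0.09, adjusted p = 1.2e-11) and 1.605 in KO2 (SE 0.09, adjusted p = 1.4e-14), and both comparisons share the WT libraries.

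SMAD2, the other receptor-regulated SMAD of the branch, changed less. Its levels were 61.1 and 60.8 CPM in WT, 67.4 and 70.1 in KO1, and 76.9 and 79.1 in KO2. The log2 fold change was 0.27 (SE 0.08, adjusted p = 0.0320), under the fold change threshold. It was 0.17 in KO1 (adjusted p = 0.0502) and 0.36 in KO2 (adjusted p = 0.000160). Within a library, SMAD3 had 39.6 to 43.6 counts per 100 counts of SMAD2 in WT, 82.0 to 85.5 in KO1 and 97.7 to 100.2 in KO2. This ratio needs no scaling between libraries, and its groups did not overlap.

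SMAD9 had the fewest counts of the family. The WT libraries held 21 and 14 counts, the KO1 libraries 49 and 53, and the KO2 libraries 174 and 121. All PCGF6-KO libraries were above WT, and both KO2 libraries were above KO1. Its mean level was 1.06 CPM in WT (SD 0.319), 2.74 in KO1 (SD 0.249) and 8.57 in KO2 (SD 1.45). The log2 fold change was 2.40 in PCGF6-KO against WT (SE 0.64, adjusted p = 0.0166), and this SE includes the spread between the clones. Against WT it was 1.36 in KO1 (SE 0.30, adjusted p = 0.000476) and 3.01 in KO2 (SE 0.25, adjusted p = 1.0e-10). Without WT replicate 1 or WT replicate 2, the pooled comparison lost its call (adjusted p = 0.0791 and 0.131), whereas both comparisons of single clones kept it.

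SMAD1 and SMAD5, the abundant receptor-regulated SMADs of the BMP branch, did not rise with SMAD9. SMAD1 was at 27.5 and 30.1 CPM in WT, 27.5 and 27.6 in KO1, and 31.3 and 30.3 in KO2, so the groups overlapped. Its log2 fold change was 0.02 (SE 0.09, adjusted p = 0.898), and its sign turned to −0.02 with upper-quartile normalization. SMAD5 was lower in each clone, at 71.1 and 78.6 CPM in WT, 54.7 and 65.6 in KO1, and 60.6 and 60.9 in KO2. Its log2 fold change of −0.31 (SE 0.09, adjusted p = 0.0203) did not reach the fold change threshold. Per 100 counts of SMAD1, SMAD9 had on average 3.74 counts in WT, 9.94 in KO1 and 27.8 in KO2.

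SMAD4, the common partner, was lower in PCGF6-KO cells by a similar amount. It had 55.4 and 60.0 CPM in WT, 43.5 and 49.8 in KO1, and 45.0 and 45.2 in KO2. All PCGF6-KO libraries lay below WT, while KO2 lay within the range of KO1. The log2 fold change was −0.33 (SE 0.08, adjusted p = 0.0111), also under the threshold. Without 1 library, the adjusted p reached 0.135 for SMAD4, 0.205 for SMAD5 and 0.168 for SMAD2 in the pooled comparison. With the adjusted p alone, 5 members were higher and 2 lower, where 20.5% and 16.6% of all tested genes were.

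Both inhibitory SMADs rose, SMAD6 more than SMAD7 in log2 fold change. SMAD6, which mainly restrains BMP signaling, had 44 and 35 counts in WT, 151 and 172 in KO1, and 317 and 252 in KO2. These were 2.70 and 2.097 CPM in WT, 7.90 and 9.46 in KO1, and 17.5 and 15.7 in KO2. No library overlapped with another group. The log2 fold change was 2.39 (SE 0.38, adjusted p = 0.00117), with 1.85 in KO1 (SE 0.19, adjusted p = 7.0e-09) and 2.79 in KO2 (SE 0.17, adjusted p = 3.7e-13).

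SMAD7, which restrains both branches, had 26.0 and 30.4 CPM in WT, 36.9 and 39.9 in KO1, and 50.2 and 48.2 in KO2. The groups did not overlap here either. The log2 fold change of 0.63 (SE 0.14, adjusted p = 0.00712) lay just above the threshold, and fell to 0.57 and 0.59 without KO2 replicate 1 and KO2 replicate 2. Without WT replicate 1 it was 0.53 (adjusted p = 0.0909). It was 0.44 in KO1 (SE 0.09, adjusted p = 0.000351), not called for its size, and 0.80 in KO2 (SE 0.09, adjusted p = 5.3e-08). Per 100 counts of SMAD7, SMAD6 had on average 8.64 counts in WT, 22.5 in KO1 and 33.7 in KO2.

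**Figure D2:**
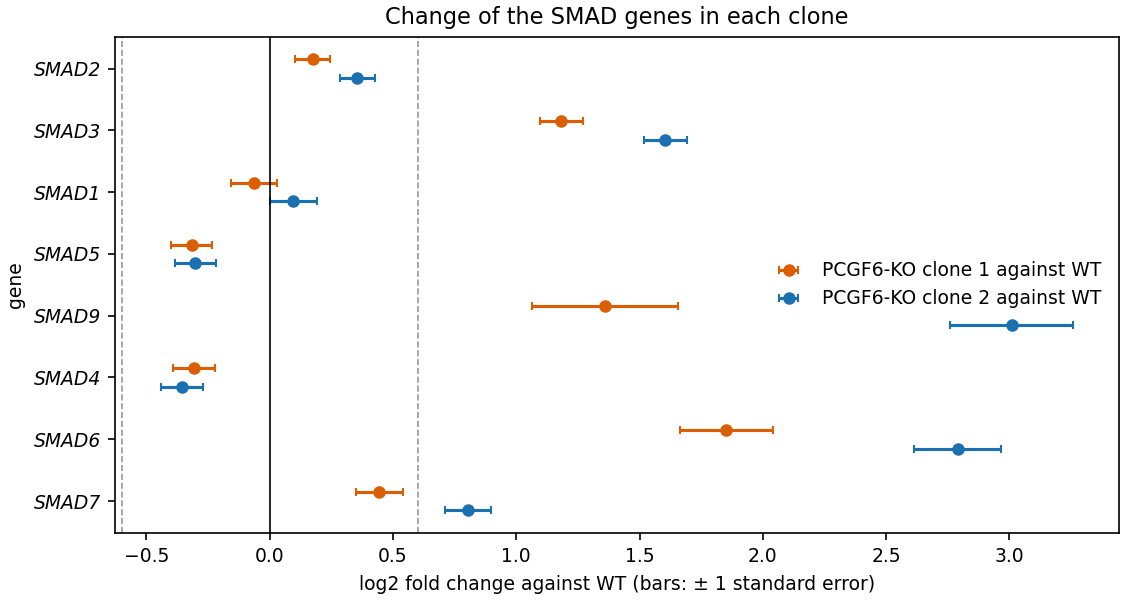
Log2 fold change of each SMAD gene in clones KO1 and KO2 against WT, with bars of 1 standard error from the fit with 3 groups, and dashed lines at the threshold of 0.6 in either direction. SMAD3, SMAD9 and SMAD6 lie beyond the line in both clones and SMAD7 in KO2 alone, and the signs of SMAD1 (−0.06 in KO1 and 0.10 in KO2) differ between the clones.

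In the single clones, 3 members were called higher in KO1, where 16% of all genes were, and 4 in KO2, where 16.9% were. No member was called lower in either, where 8.8% of all genes were in KO1 and 12.5% in KO2. SMAD4 and SMAD5 were lower in each clone at an adjusted p under 0.05, as at the unadjusted one, and DESeq2 called 0 lower. The unadjusted p was under 0.05 for 9110 of the 17672 tested genes in KO1 and 9787 in KO2. With the adjusted p alone, 6 members passed in KO1 and 7 in KO2, where 45.3% and 50.4% of all genes did. The test between the clones gave a larger increase in KO2 for 2 members. SMAD9 was higher in KO2 than in KO1 by 1.65 on the log2 scale (SE 0.20, adjusted p = 1.2e-06) and SMAD6 by 0.94 (SE 0.14, adjusted p = 1.5e-05). In this comparison 3.73% of all genes were called higher and 4.14% lower. SMAD3 (0.42, adjusted p = 0.000300) and SMAD7 (0.36, adjusted p = 0.00504) were also higher in KO2 at the adjusted p alone. By the adjusted p alone, 4 members were higher, as were 10.7% of all genes. Neither SMAD4 (−0.05) nor SMAD5 (0.01) passed the test, and the sign of SMAD5 turned to −0.01 with upper-quartile normalization. PCGF6 itself was 0.90 higher in KO2 than in KO1 on the log2 scale.

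The composition of the SMAD transcript pool shifted with these changes. The members summed to 119.6 and 129.2 TPM in WT, 132.5 and 148.1 in KO1, and 160.0 and 161.3 in KO2. SMAD1, SMAD5 and SMAD9 together made up 47.3% of this sum in WT, 36.4% in KO1 and 34.0% in KO2. The share of SMAD2 and SMAD3 was 16.0% in WT, 25.6% in KO1 and 27.2% in KO2, and its size rests on the long counted length of SMAD2. SMAD4 took 15.7% in WT, 11.1% in KO1 and 8.80% in KO2. The inhibitory SMAD6 and SMAD7 took 21.0% in WT, 26.9% in KO1 and 30.0% in KO2. In each of these classes the PCGF6-KO libraries did not overlap with WT. Per 100 counts of SMAD4, SMAD7 had on average 48.8 counts in WT, 82.5 in KO1 and 109 in KO2.

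**Figure D3:**
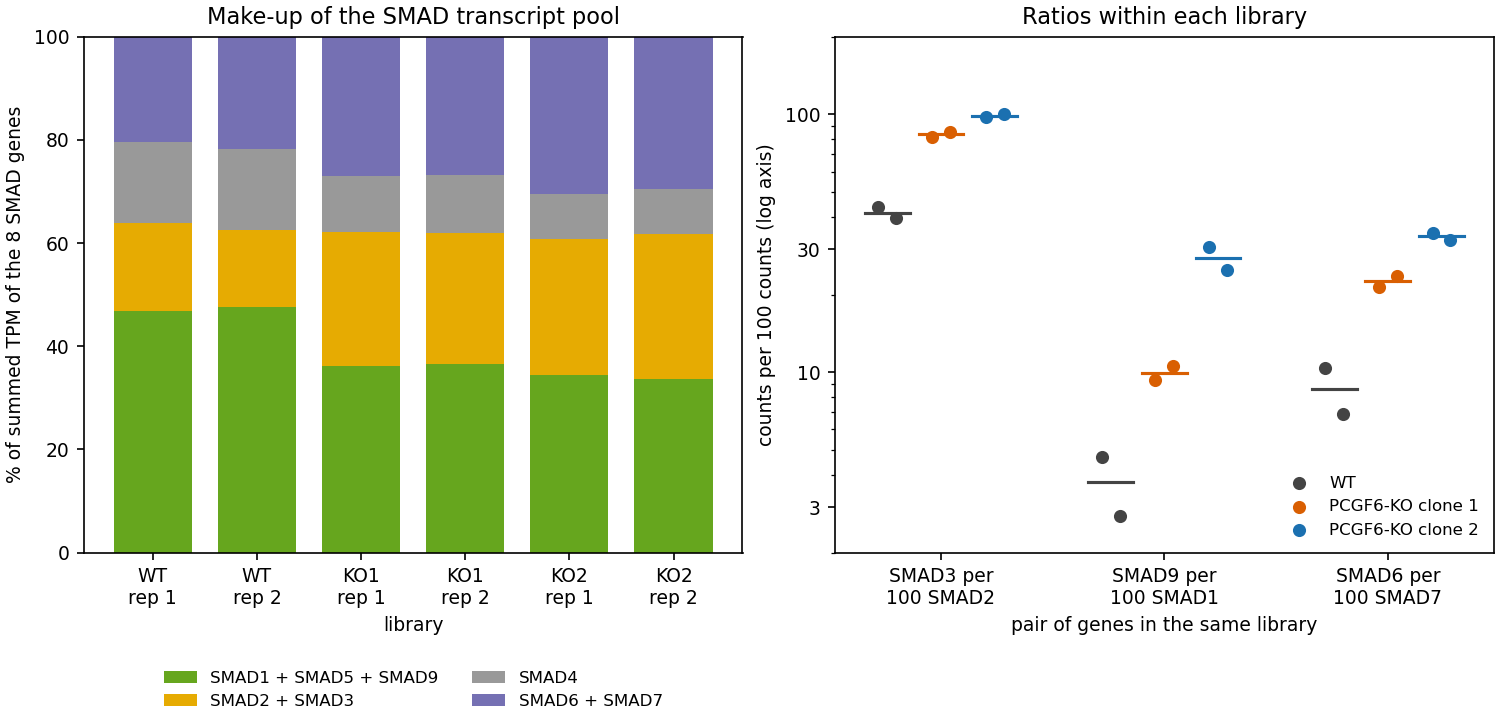
Left, share of each SMAD class in the summed TPM of the 8 members, as a stacked bar for each of the 6 libraries; right, counts of a gene per 100 counts of another in the same library, on a log axis, with points for libraries and lines for group means. The share of SMAD1, SMAD5 and SMAD9 is 46.9% and 47.7% in WT and 33.7% to 36.6% in PCGF6-KO, and SMAD3 per 100 SMAD2 is 39.6 and 43.6 in WT and 82.0 or more in PCGF6-KO.

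SMAD3 and SMAD6 are neighbours on chromosome 15, at chr15:67063763-67195173 and chr15:66702236-66782849, both on the forward strand and 280.9 kb apart on GRCh38. The 13 other tested genes within 500 kb of either had log2 fold changes between −0.95 and 0.62, with a median of −0.07. Of these 13, 0 were called higher and 1 lower. Around other members, 3 of 8 tested neighbours of SMAD9 and 3 of 4 of SMAD5 were called higher, where 14.9% of all tested genes were. The count was 1 of 7 for SMAD1, 1 of 2 for SMAD7 and 0 of 5 for SMAD4, which had 1 neighbour called lower. SMAD2 had 0 tested neighbours. SMAD2, SMAD4 and SMAD7 lie on chromosome 18, SMAD9 on chromosome 13, SMAD1 on chromosome 4 and SMAD5 on chromosome 5. GENCODE lists further genes that overlap members, of which 5 had a row in the count table, and none of these 5 had over 20 counts in all libraries together. The others were not measured. Antisense and intronic transcripts named after SMAD1, SMAD5 and SMAD9 had at most 2 counts in any library, and the strand setting of the counting is not given in the sources used here.

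The genes with the most similar course over the 6 libraries were found by the Euclidean distance between centred log2 CPM values, among genes whose mean log2 CPM was 3 or more. IFFO2 was nearest to SMAD3 (distance 0.0486, where the median over 10625 genes was 1.72), followed by AC006001.3 and PNRC1. LOX, which crosslinks collagen, was nearest to SMAD6 (0.290, median 2.84), followed by PIFO and ENC1. SYNPO, an actin-associated protein, was nearest to SMAD9 (0.416, median 2.97), followed by NOD1 and KCNMB1. These distances rest on 6 libraries in 3 groups and are a description.

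Genes that work with the SMADs were divided by role. Over all tested genes, 14.9% were called higher and 8.7% lower. Over the 7 lists, PCGF6-KO cells had 56 of 126 tested genes called higher and 4 called lower, and the median change was 0.32 on the log2 scale. The increases were mostly among secreted factors and target genes. BAMBI, LEFTY1, LEFTY2, NODAL, CER1, GDF3 and SKIL stand in 2 lists each.

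Of 31 ligands and secreted antagonists tested, 23 were called higher and 2 lower, with a median log2 fold change of 2.096. GREM1, a secreted BMP antagonist, rose by 6.18 on the log2 scale (SE 0.32, adjusted p = 1.6e-06). BMP10 had 0 counts in both WT libraries and was at least 5.89-fold higher in PCGF6-KO, against 3 counts per library (adjusted p = 0.00809). It passed the filter on low counts only through its PCGF6-KO libraries. INHBE, an inhibin subunit, fell by 0.83 (adjusted p = 0.0116). BMP5 was called higher from at most 1 count in a WT library.

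Of 18 receptors and co-receptors, 4 were called higher and 1 lower, with a median of 0.10, where 14.9% and 8.7% of all tested genes were called. BAMBI, a pseudoreceptor that blocks signaling, rose by 2.38 (SE 0.27, adjusted p = 0.000172), and RGMB, a BMP co-receptor, by 2.04 (SE 0.12, adjusted p = 3.6e-06). ACVRL1, a type I receptor, rose by 2.85 from at most 5 counts in WT (SE 0.62, adjusted p = 0.00636). ENG, the co-receptor endoglin, fell by 0.64 (adjusted p = 0.00810).

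Of 20 nuclear partners and corepressors, 5 were called higher, with a median of 0.03, where 14.9% of all tested genes were called higher. The transcription factors ZEB2 (7.08), ZEB1 (3.43) and RUNX1 (3.37) had the largest log2 increases. No ubiquitin ligase or deubiquitinase was called out of 14, by edgeR or by DESeq2. An unadjusted p under 0.05 was found for 4 of the 14 (2 higher and 2 lower), and for 8190 of all 17672 tested genes. Their log2 fold changes lay between −0.43 and 0.34. Of 18 anchors, linker kinases and phosphatases, WWTR1 alone was called, and it rose by 1.14 (SE 0.12, adjusted p = 0.000102). WWTR1 encodes TAZ, a coactivator that binds SMAD complexes.

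Known target genes of the BMP branch were called higher in 14 of 14 cases, with a median log2 fold change of 4.00, or 3.52 where genes with at most 3 WT counts were set at their bound. The homeobox gene MSX2 rose by 6.27 (SE 0.50, adjusted p = 2.0e-05). HAND1, a mesodermal transcription factor, was at 0 in both WT libraries and at least 394-fold higher in PCGF6-KO, and TBX20, at 0 likewise, was at least 5.99-fold higher. Both passed the filter on low counts only through their PCGF6-KO libraries. Targets of the activin and TGF-beta branch were called higher in 14 of 18 cases and lower in 1, with a median of 2.70. The mesendoderm regulators EOMES (8.87, SE 0.38, adjusted p = 5.6e-07) and MIXL1 (6.48, SE 0.17, adjusted p = 5.8e-08) had large increases, and CDKN2B was called higher from at most 2 counts in WT. Between the clones, 9 of 14 BMP targets and 3 of 18 activin and TGF-beta targets were called higher in KO2 than in KO1, where 3.73% of all tested genes were.

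**Figure D4:**
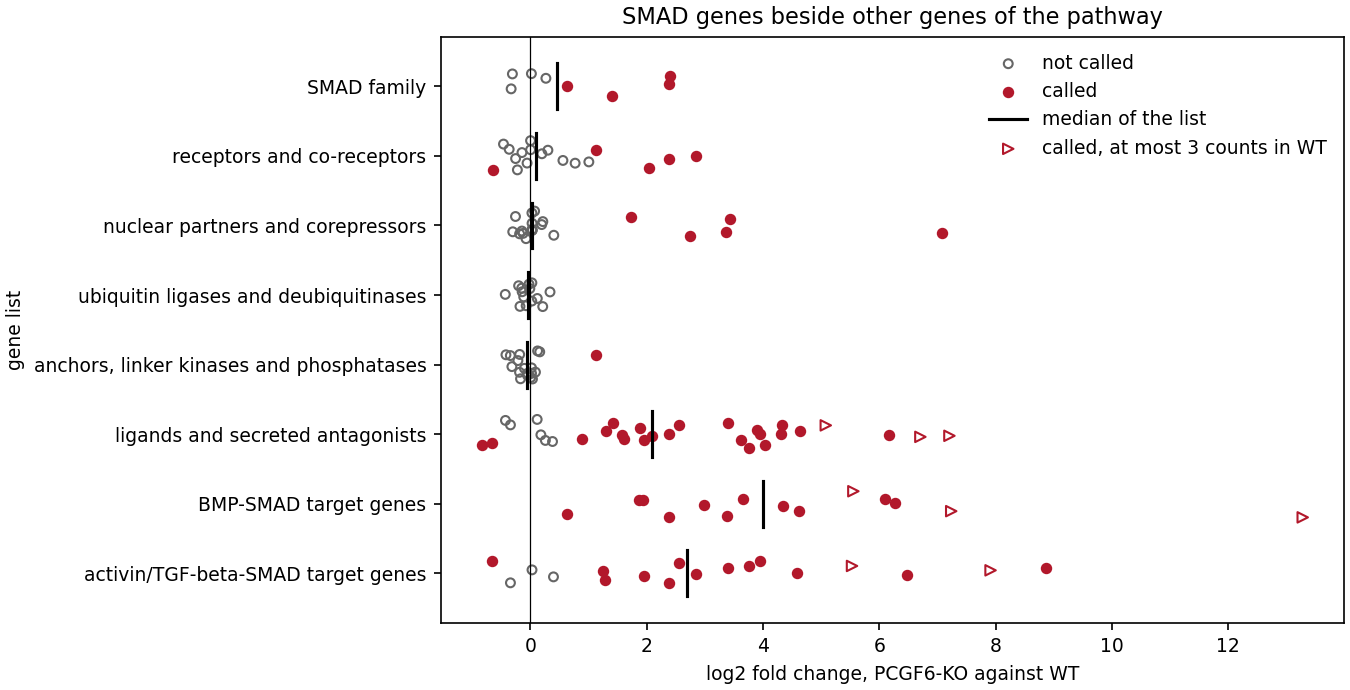
Log2 fold change between PCGF6-KO and WT for the 8 SMAD genes and 7 lists of genes that work with them, with 1 point for each gene, filled where called, and black lines at list medians. Open triangles are called genes with at most 3 counts in each WT library, whose position depends on the prior count of the fit; the SMAD genes lie between −0.33 and 2.40, and BMP targets have a median of 4.00.

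Summed levels of markers of other cell types were higher in PCGF6-KO cells. HAND1, GATA3, EOMES, MIXL1 and CER1 also stand in the lists of target genes above, so the marker lists are not separate from those. Summed CPM of 10 primitive streak and mesoderm markers was 159 in both WT libraries, where MESP1, HAND1 and MSGN1 were at 0, and it was 1131 to 1164 in KO1 and 1320 to 1355 in KO2. KDR carried nearly all of the WT sum, at 149 CPM, and had 483 in KO1 and 471 in KO2. All 8 markers that were tested were called higher, where 14.9% of all tested genes were. HAND1 and MSGN1, like SOX17 and TFAP2B below, passed the filter on low counts only through their PCGF6-KO libraries. Such genes could hardly be tested without being higher. For 8 definitive endoderm markers it was 13.6 to 14.0 in WT, with SOX17 at 0, then 124 to 135 in KO1 and 168 to 175 in KO2, with 5 of 7 tested called higher and CER1 the largest, at 106 CPM in KO1 and 126 in KO2. For 8 amnion and trophoblast markers it was 10.8 to 13.0 in WT, with TFAP2B at 0, then 77.6 to 83.5 in KO1 and 130 to 142 in KO2. CDX2 carried most of it, at 0.0607 CPM in WT, 38.1 in KO1 and 77.3 in KO2. Of the 7 tested, 5 were called higher, whereas GABRP had a log2 fold change of −0.00 and KRT7 was called lower in KO2 (−1.07, adjusted p = 0.00261). For 8 neuroectoderm markers it was 350 to 396 in WT, 626 to 705 in KO1 and 659 to 745 in KO2, with HES5 at 0 in WT and SOX1 and HES5 at 0 in KO2. NES carried this sum, at 299.7 CPM in WT, 629 in KO1 and 666 in KO2, whereas OTX2 was called lower in both clones, at 72.1, 30.6 and 29.7 CPM. Of the 6 tested, 4 were called higher and 1 lower. The part of these cells in the SMAD values was not tested. In bulk RNA, fewer cells of a type and less RNA per cell cannot be told apart.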

How the data were processed

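Raw counts per gene from 6 RNA-seq libraries (2 each of WT, KO1 and KO2) were used. The authors trimmed reads with Trim Galore 0.6.2, aligned them to GRCh38 with HISAT2 2.1.0, counted them with featureCounts, and deposited the counts as whole numbers with a gene length. The annotation release, strand setting and handling of multi-mapped reads are not given in the sources used here. ChIP-seq was not analysed here.

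Genes passing filterByExpr were TMM-scaled and tested with glmQLFit and glmQLFTest in edgeR 4.0.16 (R 4.3.3), with the 4 PCGF6-KO libraries against WT, and in a fit with 3 groups for the single clones. The standard error is the log2 fold change divided by the square root of F. P-values were adjusted over all 17672 tested genes. TPM used the deposited lengths. The 8 members, the gene lists and the markers were chosen with earlier results of these data known. Of each list, up to 3 genes with the largest change in each direction were named, from those that each clone alone also called, with the same sign. Positions came from GENCODE v44, and promoters from RefSeq, by symbol, for all 8 members. On simulated counts for PCGF6-KO against WT, 79 of 100 genes changed 2-fold and 94 of 100 changed 4-fold were called, with 3 unchanged genes called, among 17242 genes. The simulated counts varied only as within the 3 groups and held no difference between the clones. These rates may therefore be too favourable for the pooled comparison, whose spread includes that between the clones. Alternatives were DESeq2 1.42.0, other normalizations, filters and thresholds, the replicate block, the average over the clones, fits on the compared groups alone, CPM for the ranks, and leaving out each library. The MANE Select transcript length was added as an alternative after the data were seen. Bounds on fold changes cover counting error only.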

Additional observations from a re-analysis of the deposited data

Results flagged for a closer look

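For 4 members, the increase over WT differed between the clones by the test of KO2 against KO1 in edgeR's fit with 3 groups. SMAD9 was 1.65 higher in KO2 on the log2 scale (adjusted p = 1.2e-06) and SMAD6 was 0.94 higher (adjusted p = 1.5e-05). The differences were 0.42 for SMAD3 (adjusted p = 0.000300) and 0.36 for SMAD7 (adjusted p = 0.00504), which passed the adjusted p and not the fold change threshold. In each of these genes both KO2 libraries lay above both KO1 libraries. The same held for SMAD1 and SMAD2, which did not pass the test. How many of all tested genes had this order was not counted.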

How the results depend on the processing

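SMAD3 and SMAD6 were called in PCGF6-KO against WT under 13 of 13 alternatives, SMAD9 under 11 and SMAD7 under 10. Their log2 fold changes were at least 1.32 for SMAD3, 2.20 to 2.58 for SMAD6, 2.02 to 2.74 for SMAD9 and 0.53 to 0.75 for SMAD7. With the adjusted p alone, the called genes were 6556 in PCGF6-KO (7 SMAD genes), 8002 in KO1 (6), 8904 in KO2 (7) and 3442 between the clones (4), and 9 nuclear partners, 2 ubiquitin ligases or deubiquitinases and 4 anchors, kinases or phosphatases passed. With at least 10 counts in every library, which tests fewer genes, 16 of 20 ligands, 3 of 18 nuclear partners and 7 of 7 BMP targets were called. DESeq2 called 810 genes between the clones, against 1390, and the cause was not tested. Leaving out 1 library gave 2 to 4 SMAD genes called in PCGF6-KO, the lowest without WT replicate 1. In that fit a group is left with 1 library, assumed to vary like the others. The sign of SMAD1 in PCGF6-KO reversed to −0.015 under upper-quartile normalization, and its range was −0.050 to 0.088 with a library left out. SMAD1 in KO1 ranged from −0.131 to 0.013 with a library left out. Between the clones, SMAD5 reversed to −0.0098 under upper-quartile normalization and ranged from −0.111 to 0.150 with a library left out, and SMAD4 ranged from −0.144 to 0.051. In the comparison of WT levels, SMAD2 ranked second in CPM, where length is not considered, and SMAD1 moved ahead of SMAD7 with the MANE Select length. The shares of the SMAD classes kept their order between the groups with that length, with 48.9%, 37.8% and 34.7% for SMAD1, SMAD5 and SMAD9. The median of all genes was 0.00 in the main comparison, −0.03 under upper-quartile normalization and 0.10 with no filter.

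Replicate numbers were not treated as pairs, since not every pair of groups correlated over 0.1 in the deviations of same-numbered libraries from the group means (Pearson's r −0.00, 0.04 and 0.06, Spearman's rho 0.07, 0.09 and 0.16). The labels do not say whether same-numbered libraries were prepared together, and weak correlations cannot exclude it. With the replicate block, 3876 genes (against 4167) were called in PCGF6-KO, 4 of them SMAD genes, and no call of a SMAD gene changed. SMAD9 rested on 14 to 174 counts per library, which limits its precision.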
